A study of Mus musculus with 12 samples.

Results

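The genes described here are 32 genes of the piRNA pathway and of DNA methylation, measured in fetal mouse gonads. They were listed by name for their known roles, and no measured value enters the rule, although earlier results of these arrays were known when the list was made. On the array, 31 of the 32 had a transcript cluster (the probe set that stands for 1 transcribed region) annotated with their symbol, out of 30709 genes that could be named in this way. Fkbp6 was not matched and has no value here. Each gene is represented by the cluster with the highest mean over the 12 arrays.

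piRNAs are small RNAs of the germ line that guide PIWI proteins to transposon transcripts. PIWI proteins carry methylated arginines, written by PRMT5 with its partner WDR77, and Tudor domain proteins bind these marks and gather the pathway in cytoplasmic granules. In fetal male germ cells, nuclear PIWI complexes direct DNA methylation to young transposons after the genome of the primordial germ cells has been largely demethylated. DNMT3A and DNMT3B set new methylation, DNMT1 with UHRF1 copies it at replication, and TET1, TET2 and TET3 oxidise methylated cytosine. Female germ cells enter meiosis in the fetal ovary and gain DNA methylation only after birth.

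The study asked what the ovarian transcription factor FOXL2 does when a transgene supplies it to somatic cells of a fetal testis. It has 3 groups of 4 arrays, each array hybridised with RNA from 1 pair of gonads at 14.5 days post coitum, freed of the mesonephros. XY control gonads were Rosa26+/+ and XX control gonads were also Rosa26+/+. XY FOXL2+ gonads were Rosa26-CAG-LSL-Foxl2+/f, with a transgene silent until Cre removes a stop cassette. The Sf1-Cre transgene was present in all 3 groups, and it acts in the somatic lineages of the gonad. All embryos came from the same type of cross on a mixed 129Sv and C57Bl/6J background. Many of the 32 genes are known to act in germ cells, and others, such as Prmt5, Dnmt1 and the TET genes, act in many cell types.

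Values are the deposited log-scale signals, taken as log2. A difference of 1 is then 2-fold. Differences were tested with limma over all 65956 clusters that are not controls, and a gene is said to have risen or fallen where the Benjamini-Hochberg adjusted p was under 0.05. The level of 1 gene is not set against that of another, since each probe set has its own response. In whole gonads, fewer cells of a type and less RNA per cell cannot be told apart.

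Foxl2 had signals of 5.07, 5.55, 5.44 and 5.33 on the XY control arrays, 7.67, 8.62, 7.18 and 6.72 on the XY FOXL2+ arrays and 8.08, 7.30, 7.14 and 7.39 on the XX control arrays. The Y-linked genes Uba1y, Eif2s3y, Uty and Kdm5d were higher on every array labelled XY than on any labelled XX. On the XX arrays, which have no Y chromosome, they still read 5.85 to 7.12, so a value in that range is not shown to be above background. These 4 genes were chosen after the values were seen, and their range is a cautious one, since the background control entries of the array had medians of only 3.99 to 4.17. With XY FOXL2+ minus XY control, all 8 Sertoli cell and all 4 measured fetal Leydig cell markers fell, and 4 of 8 fetal granulosa cell markers rose. None of 12 general germ cell markers rose (0 also at an unadjusted p under 0.05) and 5 fell, namely Dnd1, Nanos3, Sall4, Prdm1 and Utf1. Differences were positive, without passing the test, for 4 of the 12: Dazl (0.35), Kit (0.13), Tfap2c (0.06) and Sox2 (0.04). Dnd1 and Nanos3 read 6.06 to 6.74 and 5.35 to 6.41 in XY FOXL2+, levels not shown to be above background. Between the controls, 2 of the 12 were higher in XX and 5 lower, so this list is no measure of germ cell number. Ddx4, a member that is also used as a germ cell marker, had a FOXL2 difference of -0.16 (adjusted p = 0.779 by limma). The mean log2 signal of the 12 was 9.00 to 9.30 in XY control, 8.31 to 8.76 in XY FOXL2+ and 8.41 to 8.90 in XX control. Of 12 meiotic germ cell markers, 10 rose, and their mean signal was 8.41 to 8.85, 10.22 to 12.67 and 12.30 to 12.48 in the same order. Markers of macrophages (4 of 6 rose) and endothelium (2 of 6 rose) also moved, while none of 5 erythroid and none of 7 proliferation markers passed the test (at an unadjusted p under 0.05, 0 of the erythroid markers and 1 up and 1 down of the proliferation markers). Of 6 markers of the mesonephric duct and tubules, 1 rose and 1 fell. The part of germ cell and somatic cell content in these shifts and in the values below was not tested.

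Stretches of promoter are shown for 7 members. For 5 of them the reason is the E-box, the motif whose share in these genes lay farthest from its share in all genes. Promoters were taken from RefSeq on build GRCm38.p6, from 250 bases before to 50 bases after each transcript start, and 27 of the 32 members had one. In each line, capitals mark the motif. The first 5 stretches hold CACGTG, the E-box that MAX binds together with MGA. Both belong to PRC1.6, a Polycomb complex known for silencing germ line genes in other cells. Ddx4 (chr13:112652311-112652390, minus strand) codes for the germ cell RNA helicase VASA, Mael (chr1:166238915-166238994, minus strand) for a granule protein needed for transposon silencing, and Mov10l1 (chr15:88982744-88982823, plus strand) for the helicase that feeds piRNA precursors into processing. Stk31 (chr6:49395447-49395526, plus strand) and Tdrd1 (chr19:56826129-56826208, plus strand) code for Tudor domain proteins.
Ddx4: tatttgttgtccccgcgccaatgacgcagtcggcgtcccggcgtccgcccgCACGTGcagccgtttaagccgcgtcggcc
Mael: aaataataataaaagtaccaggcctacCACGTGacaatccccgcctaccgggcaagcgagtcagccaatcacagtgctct
Mov10l1: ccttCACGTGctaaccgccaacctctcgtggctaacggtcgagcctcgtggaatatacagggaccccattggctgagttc
Stk31: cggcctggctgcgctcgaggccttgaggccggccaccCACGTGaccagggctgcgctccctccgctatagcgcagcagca
Tdrd1: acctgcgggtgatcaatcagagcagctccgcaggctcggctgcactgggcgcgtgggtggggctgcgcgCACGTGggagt

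The E-box was present in a promoter of 10 of the 27 members, or 37%, namely Ddx4, Mael, Mov10l1, Stk31, Tdrd1, Piwil1, Pld6, Fkbp6, Wdr77 and Dnmt3a. It was present in 8.09% of all 27025 genes of the table. Ddx4, Mael, Mov10l1, Stk31 and Tdrd1, shown above, did not pass the test in any comparison of the main fit. Of the members that fell in XY FOXL2+ gonads, described below, Tdrd5, Henmt1, Exd1 and Tet2 lacked the E-box and Morc1 had no promoter. Counting CG dinucleotides in the most CG-rich promoter of each gene, the members had a median of 25 (11 to 57) against 8 over all genes, and among the 12388 genes with at least 10 CG the share with the E-box was 12.3%. All motifs were searched on both strands. CACGTG reads the same on both, and matches of different motifs shared a base 1 time in the promoters of the members. Members had 1.48 promoters each on average and all genes 1.22, and a gene was counted once if any of its promoters held the motif.

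TCCCGC, the core of the site of E2F factors, was present in 12 of 27 members, or 44.4%. That share lay above the 22% of all genes and close to the 42.7% of CG-rich genes. The CCAAT box was found in 44.4% of members, 41.1% of all genes and 41.2% of CG-rich genes, and TATAAA in 14.8%, 15.7% and 7.86%. These shares are a description, with no test, and a match of letters is no evidence of binding. The promoters of Tdrd5 (chr1:156303519-156303598, minus strand) and Tet2 (chr3:133544391-133544640, minus strand), the 2 members whose fall in XY FOXL2+ gonads lost its call under the fewest alternative settings, are shown with TCCCGC in capitals. In Tet2 it occurs 5 times within 250 bases, with first bases at -217, -175, -133, -91 and -51 from the start. All but the last lie inside a run of near-identical repeats, and the match at -51 stands where the run ends, with other bases around it.
Tdrd5: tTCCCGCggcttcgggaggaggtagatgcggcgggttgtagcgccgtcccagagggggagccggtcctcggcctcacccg
Tet2: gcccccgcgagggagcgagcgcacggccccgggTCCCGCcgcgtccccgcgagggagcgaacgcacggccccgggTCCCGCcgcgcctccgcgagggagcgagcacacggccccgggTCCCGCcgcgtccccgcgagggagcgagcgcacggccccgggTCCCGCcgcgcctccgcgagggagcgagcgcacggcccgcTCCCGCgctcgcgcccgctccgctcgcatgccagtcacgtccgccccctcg

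**Figure D1:**
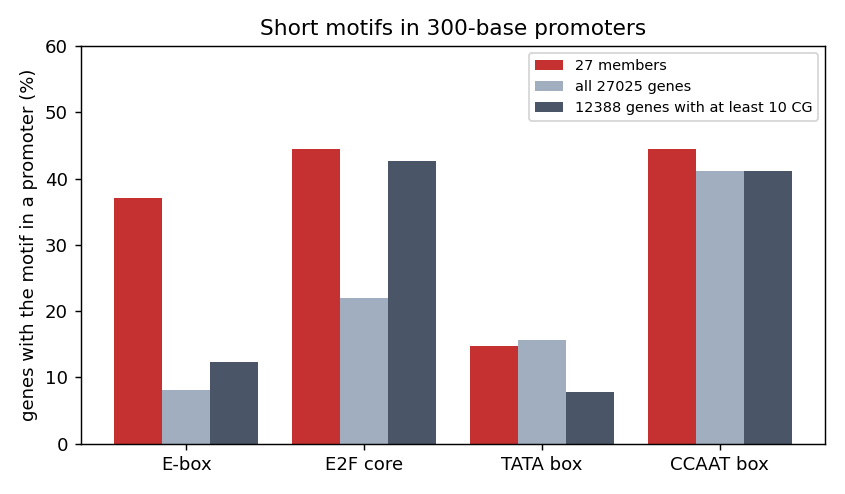
Share of genes with each short motif in at least 1 promoter of 300 bases (y axis, percent), for 27 members (red), all 27025 genes (light grey) and 12388 genes with at least 10 CG (dark grey). For the E-box, CACGTG, the bars stand at 37%, 8.09% and 12.3%, while for CCAAT they stand between 41.1% and 44.4%.

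In XY FOXL2+ gonads, 5 members fell against XY control and none rose. The 5 were Tdrd5, Henmt1 and Exd1 of the piRNA pathway, the dioxygenase gene Tet2 and the germ line silencing gene Morc1. Tdrd5 fell 3.55-fold and Morc1 6.42-fold, the other 3 by less than 2-fold. Of all clusters, 4.67% fell and 2.46% rose (7.12% in either direction), and 1.68% changed by at least 2-fold. All measured members but Tdrd6 and Ctcfl ranked above the median signal. A fit of only the clusters above it called 6 members, all lower, and 4881 clusters, more than the 4698 of the full fit. The share called was thus higher there, so the shares over all clusters, here and below, do not show that the members stand out. At an unadjusted p under 0.05, 12 members were lower and 2 were higher. The share of all clusters at an unadjusted p is not given here, so such counts, here and below, are not read as an excess. The median difference over the 31 members was -0.16, against 0.00308 over all clusters. Groups did not overlap for 4 members, all lower, where 6.97% of all clusters were lower and 5.23% higher without overlap. The count of 5 rests on which arrays are in the fit. It was 3 without XY control replicate 3 or 4 and 2 without XY FOXL2+ replicate 2. Without XY FOXL2+ replicate 1, 2 fell and 2 rose, and with only the 2 groups in the fit 1 fell.

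**Figure D2:**
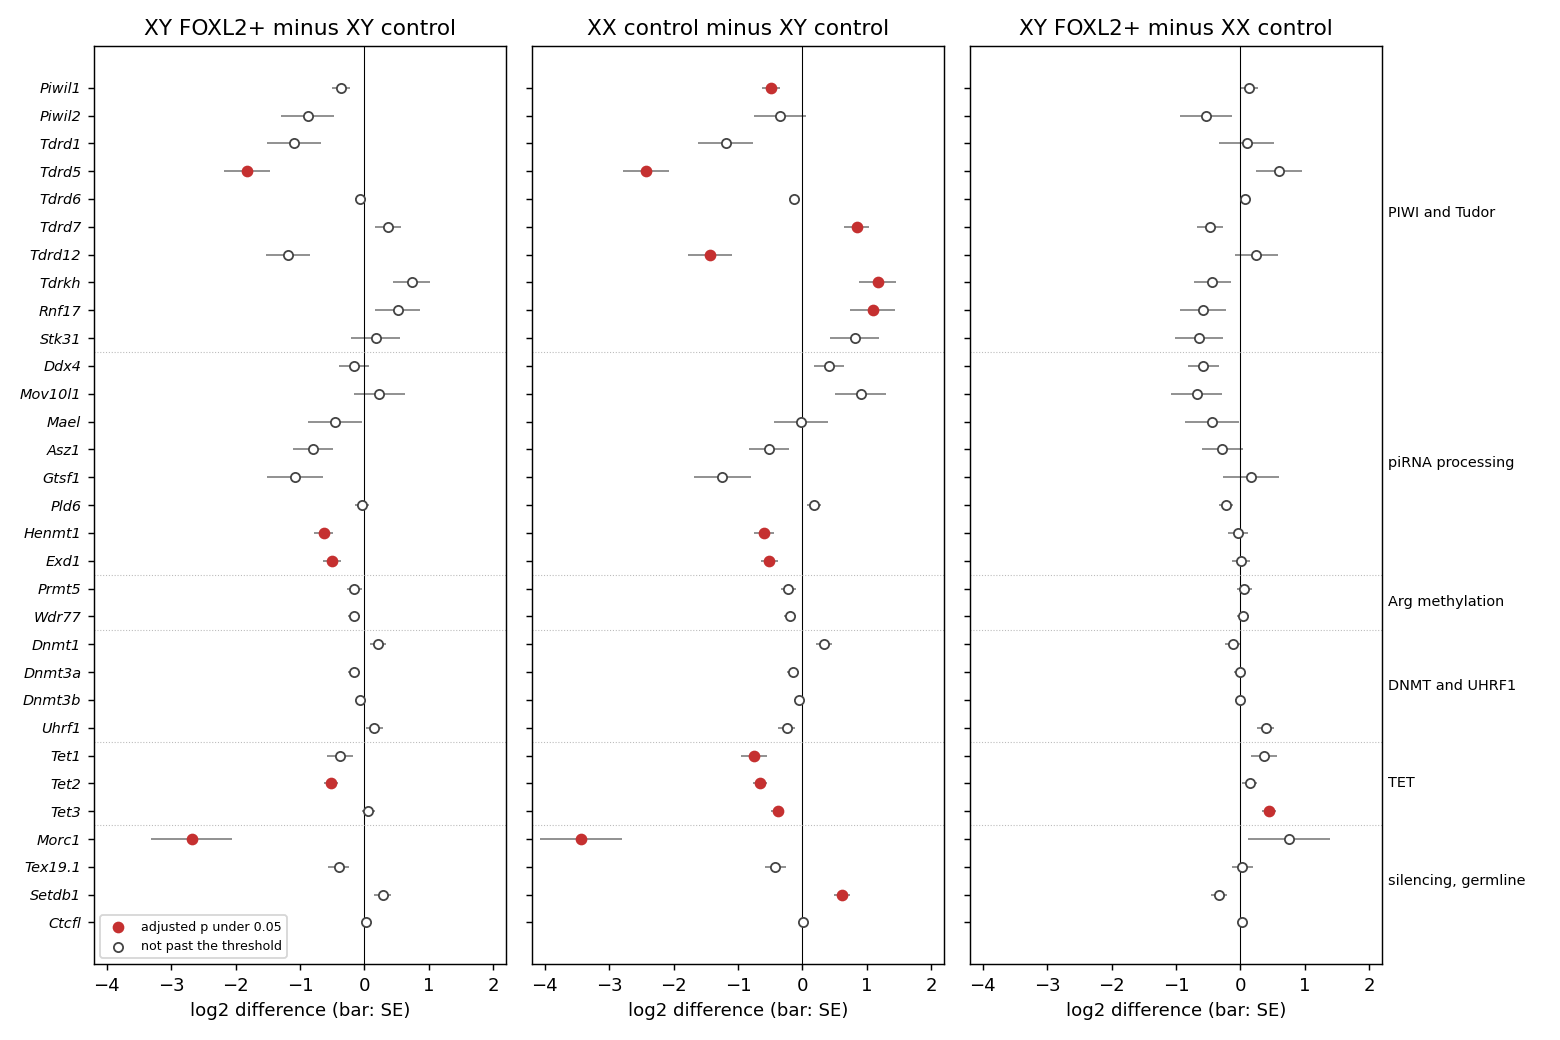
Log2 difference of each of the 31 measured members (x axis, bar: SE) for XY FOXL2+ minus XY control, XX control minus XY control and XY FOXL2+ minus XX control, with filled red points past an adjusted p of 0.05. The filled points number 5, 13 and 1 in the 3 panels, and Morc1 and Tdrd5 lie farthest to the left in the first and second panels.

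Among the 10 measured genes of PIWI and granule Tudor proteins, Tdrd5 alone fell with FOXL2. TDRD5 is a Tudor protein needed for normal germ granules and for silencing of transposons in the male germ line. Its log2 signal was 11.21, 11.53, 11.89 and 12.84 in XY control, 9.34, 9.55, 10.34 and 10.93 in XY FOXL2+, and 9.26, 9.56, 9.52 and 9.44 in XX control. Every XY FOXL2+ array was thus below every XY control array, and the lower pair of them lay at the level of the ovaries. The difference was -1.83 (SE 0.36, adjusted p = 0.00751 by limma). This call held under all 19 alternative settings, with adjusted p from 0.0015 to 0.0403 and differences from -2.12 to -1.50.

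Tdrd12, whose product is a helicase with Tudor domains that works with PIWI proteins, had signals of 10.58, 10.85, 10.89 and 11.57 in XY control, 8.77, 9.48, 10.23 and 10.67 in XY FOXL2+ and 9.26, 9.67, 9.71 and 9.52 in XX control. The XY FOXL2+ arrays spread over nearly 2 log2 units, and the highest of them overlapped XY control. The difference of -1.19 (SE 0.34) missed the threshold (adjusted p = 0.0518 by limma). It passed under 5 of the alternatives, with an adjusted p as low as 0.0111 without XY FOXL2+ replicate 4.

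The other Tudor and PIWI genes did not pass the test for FOXL2. Tdrd1 and Piwil2, which act together in granules where piRNAs are amplified, had differences of -1.09 (adjusted p = 0.16) and -0.88 (adjusted p = 0.248) in limma. Their signal ranged from 8.90 to 11.04 and from 10.62 to 12.42 within XY control, so the spread between replicates was as large as the difference. Piwil1, the PIWI gene best known from later spermatogenesis, read 6.38 to 7.34 over all arrays, all but XY control replicate 4 within the range of the silent Y-linked genes. Tdrd6, also best known from later stages, read 4.39 to 4.76 on all 12 arrays, below that range, and is not shown to be expressed at this stage.

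A different group of Tudor genes had positive differences, without passing the test. Tdrkh, whose product anchors PIWI proteins at mitochondria during piRNA trimming, had signals of 7.49, 7.56, 7.85 and 8.38 in XY control and 7.76, 9.44, 8.45 and 8.56 in XY FOXL2+. In XX control it read 8.78, 9.10, 9.17 and 8.91. XY FOXL2+ replicate 1 lay within the XY control range and the other 3 above it. The difference was 0.73 (SE 0.29, adjusted p = 0.169 by limma), and 1.00 (adjusted p = 0.0301) without XY FOXL2+ replicate 1.

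Rnf17, a Tudor gene whose product forms its own granules in male germ cells, also had a positive difference. Its signals were 10.27, 10.62, 10.80 and 11.44 in XY control, 10.20, 12.27, 11.31 and 11.41 in XY FOXL2+, and 11.60, 11.97, 12.11 and 11.83 in XX control. XY FOXL2+ replicate 1 read below every testis array, replicates 3 and 4 lay within the testis range and replicate 2 read above every ovary array. The difference from XY control was 0.52 (SE 0.35, adjusted p = 0.467 by limma). Tdrd7, a granule assembly factor, and Stk31 had differences of 0.37 (adjusted p = 0.335) and 0.17 (adjusted p = 0.858).

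**Figure D3:**
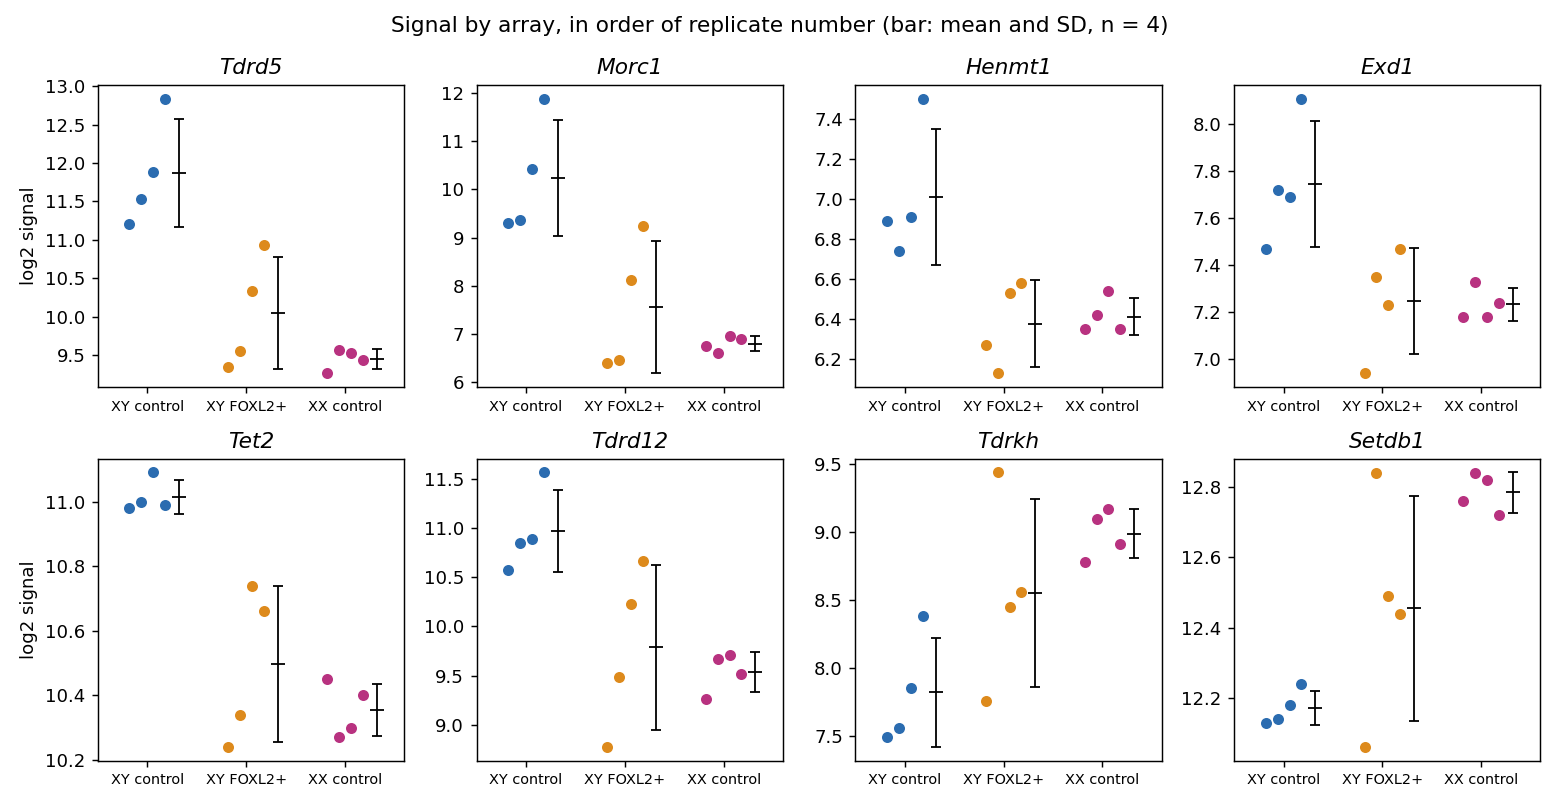
Log2 signal on each array (y axis) by group, points in order of replicate number, bars the mean and SD (n = 4), for Tdrd5, Morc1, Henmt1, Exd1, Tet2, Tdrd12, Tdrkh and Setdb1, each with its own axis. Tdrd5, Tet2, Morc1 and Henmt1 show no overlap between XY FOXL2+ and XY control, whereas Exd1, Tdrd12, Tdrkh and Setdb1 overlap.

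Of the 8 measured genes for piRNA processing, helicases and cofactors, Henmt1 and Exd1 fell and none rose. HENMT1 methylates the 3' end of mature piRNAs and protects them. Its signals were 6.89, 6.74, 6.91 and 7.50 in XY control, 6.27, 6.13, 6.53 and 6.58 in XY FOXL2+, and 6.35, 6.42, 6.54 and 6.35 in XX control. The groups did not overlap, but the lower ones lie in the range of the silent Y-linked genes. The estimate of 1.55-fold may thus be too small. All but 1 of the XY control arrays also lie in that range, where a signal is not shown to be above background. The difference was -0.63 (SE 0.15, adjusted p = 0.0233 by limma). It lost the call without XY FOXL2+ replicate 1 (adjusted p = 0.0511) or replicate 2 (0.0682) and with only the 2 groups in the fit (0.0834).

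EXD1 is a partner of TDRD12 in the making of piRNAs. Its signals were 7.47, 7.72, 7.69 and 8.11 in XY control, 6.94, 7.35, 7.23 and 7.47 in XY FOXL2+, and 7.18, 7.33, 7.18 and 7.24 in XX control. The highest XY FOXL2+ array met the lowest XY control array. XY FOXL2+ replicate 1, at 6.94, lies in the range of the silent Y-linked genes, and the XX control arrays read just above it. The difference of -0.50 (SE 0.14, adjusted p = 0.0447 by limma) was the least firm of the 5. It lost the call under 13 of 19 alternatives, with adjusted p up to 0.135. Of these, 10 leave out 1 array, and only the fits without XY control replicate 1 or without XY FOXL2+ replicate 4 kept the call.

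The other processing genes did not pass the test. Ddx4, one of the most used markers of germ cells, had group means of 14.37 in XY control, 14.21 in XY FOXL2+ and 14.78 in XX control, a FOXL2 difference of -0.16 (adjusted p = 0.779 by limma). Mael and Asz1, the latter a mitochondrial granule component, had differences of -0.45 and -0.79, and Gtsf1, a small zinc finger partner of PIWI proteins, had -1.08 (adjusted p = 0.188). Mov10l1 had 0.23. Pld6, the mitochondrial enzyme of primary piRNA processing, had -0.04, and its 2 other clusters on the array had differences of -0.01 and 0.00. Several of these genes varied widely among gonads of the same genotype, as described below.

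Prmt5 and Wdr77, the arginine methylation pair, act in many cell types. Prmt5 ran from 12.40 to 12.57 in XY control, 12.05 to 12.67 in XY FOXL2+ and 12.20 to 12.35 in XX control. Wdr77 ran from 11.05 to 11.34, 10.88 to 11.14 and 10.90 to 11.06. Both had a FOXL2 difference of -0.16, and neither passed the test (adjusted p = 0.501 and 0.41 by limma).

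None of Dnmt1, Dnmt3a, Dnmt3b and the cofactor gene Uhrf1 passed the test for FOXL2. Dnmt1, the maintenance enzyme, ran from 13.07 to 13.32 in XY control and from 13.18 to 13.68 in XY FOXL2+, a difference of 0.21 (SE 0.13, adjusted p = 0.385 by limma). Uhrf1, its partner at replication forks, had 0.15 (SE 0.13), and on XY FOXL2+ replicate 1 it read 10.80 against 10.12 to 10.32 on the other 3. The mean signal of 7 proliferation markers was likewise highest on that array, at 13.06 against 12.34 to 12.52 on the others. Whether the cycling of cells has a part in the Uhrf1 value was not tested. Dnmt3a and Dnmt3b had -0.16 (SE 0.09) and -0.06 (SE 0.08).

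The TET genes differed among themselves. Tet2 signals were 10.98, 11.00, 11.09 and 10.99 in XY control, 10.24, 10.34, 10.74 and 10.66 in XY FOXL2+, and 10.45, 10.27, 10.30 and 10.40 in XX control. The XY control arrays lay close together and every XY FOXL2+ array was below them. The difference was -0.52 (SE 0.11, adjusted p = 0.0127 by limma), 1.43-fold, and it lost the call in 1 of 19 alternatives, with only the 2 groups in the fit (adjusted p = 0.0582). Tet1 had a difference of -0.38 (adjusted p = 0.336), with XY control replicate 2 at 12.08 and the other 3 of its group at 10.90 to 11.39. Tet3 had 0.06 (adjusted p = 0.812).

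Among the 4 silencing and methylation-linked genes, Morc1 fell. MORC1 is an ATPase of the germ line needed in the male fetus for the methylation of a set of transposons. Its signals were 9.31, 9.36, 10.42 and 11.88 in XY control, 6.40, 6.47, 8.12 and 9.25 in XY FOXL2+, and 6.75, 6.60, 6.96 and 6.90 in XX control. No XY FOXL2+ array reached XY control, but both groups were wide, and 2 of the 4 XY FOXL2+ arrays read below every ovary array. Those 2 arrays and all XX control arrays lie in the range of the silent Y-linked genes. The difference was -2.68 (SE 0.63, adjusted p = 0.0214 by limma), or 6.42-fold, an estimate that signals in that range may make too small. It lost the call without XY control replicate 3 (adjusted p = 0.0608) or 4 (0.0563), without XY FOXL2+ replicate 1 (0.0513) or 2 (0.0639) and with only the 2 groups in the fit (0.0822). Its value was then between -2.14 and -2.68. The SE of the main fit pools the 3 groups, whose SDs were 1.20 in XY control, 1.38 in XY FOXL2+ and 0.16 in XX control.

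Setdb1, the histone methyltransferase that silences transposons before methylation is set, had signals of 12.13 to 12.24 in XY control, 12.06 to 12.84 in XY FOXL2+ and 12.72 to 12.84 in XX control. The FOXL2 difference was 0.28 (SE 0.13, adjusted p = 0.246 by limma), and 0.42 (adjusted p = 0.02) without XY FOXL2+ replicate 1, which read 12.06. Tex19.1, a germ line gene activated when promoter methylation is lost, had -0.40 (adjusted p = 0.19). It read 6.81 on XY FOXL2+ replicate 1, in the range of the silent Y-linked genes. Ctcfl, a germ line relative of CTCF, read 5.42 to 5.61 on all arrays, below the range of the silent Y-linked genes, and is not shown to be expressed.

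Between the control ovaries and testes, 13 of the 31 members differed. The 9 that were lower in XX control were Piwil1, Tdrd5, Tdrd12, Henmt1, Exd1, Tet1, Tet2, Tet3 and Morc1, and the 4 that were higher were Tdrd7, Tdrkh, Rnf17 and Setdb1. Over all clusters, 10.2% were lower and 7.17% higher (17.4% in either direction). In the fit of only the clusters above the median signal, 13 members and 10772 clusters were called, against 11459 clusters in the full fit. The share of clusters called was thus higher there too. The 5 that differed by at least 2-fold were Tdrd5, Tdrd12, Tdrkh, Rnf17 and Morc1, where 4.32% of all clusters did so. The median over the members was -0.22, against -0.0329 over all clusters. Groups did not overlap for 13 members with lower and 5 with higher values in XX control, where the shares over all clusters were 14.8% and 10.5%.

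The largest sex differences were again Morc1 at -3.44 (adjusted p = 0.00189) and Tdrd5 at -2.42 (5.36-fold, adjusted p = 0.00038) in limma. For Morc1 the ovaries lie in the range of the silent Y-linked genes, so the estimate of 10.9-fold may be too small. Tdrd12 was 2.7-fold lower in XX control at -1.43 (adjusted p = 0.00921). Henmt1 at -0.60 (adjusted p = 0.0148), Exd1 at -0.51 (adjusted p = 0.0192) and Piwil1 at -0.49 (adjusted p = 0.0257) were lower by less than 2-fold. Henmt1 and Piwil1 in XX control lie in the range of the silent Y-linked genes, where a signal is not shown to be above background. Their estimates of 1.51-fold and 1.41-fold may thus be too small. The Piwil1 call was lost in 6 of 19 alternatives, the fits without XY control replicate 3 or 4 or without any 1 of the XX control arrays (adjusted p up to 0.0658). The Exd1 call was lost in 2, without XX control replicate 1 or 3 (adjusted p up to 0.0519). Tdrd1 had -1.19 (adjusted p = 0.0744) and Gtsf1 -1.24 (adjusted p = 0.0733), neither past the test. Gtsf1 read 6.51 to 6.70 in XX control, also in the range of the silent Y-linked genes, so the size of its difference may be too small as well.

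Tudor genes thus differed in both directions. Tdrkh was 2.25-fold higher in ovaries at 1.17 (adjusted p = 0.0124 by limma) and Tdrd7 was higher by 0.84 (adjusted p = 0.00959), with group means of 9.89 in XX control and 9.05 in XY control that did not overlap array by array. Rnf17 was 2.13-fold higher at 1.09 (adjusted p = 0.0484), a call that was lost under 9 of 19 alternatives. Setdb1 was higher by 0.61 (adjusted p = 0.00478). Stk31 and Mov10l1 had 0.82 and 0.91 without passing the test (adjusted p = 0.184 and 0.153).

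All 3 TET genes were lower in XX control. Tet2 had -0.66 (adjusted p = 0.001), Tet1 -0.74 (adjusted p = 0.0215) and Tet3 -0.38 (adjusted p = 0.0215) in limma. Tet3 lost its call in 7 of 19 alternatives, among them quantile normalization (-0.30, adjusted p = 0.0823), and Tet1 in 3. TET enzymes are made in many cell types, and which cells gave the signal cannot be told from whole gonads. Dnmt1 had 0.33 (adjusted p = 0.0951), with no overlap between XX control at 13.34 to 13.66 and XY control. Dnmt3a, Dnmt3b and Uhrf1 had -0.15, -0.05 and -0.24, none past the test.

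Against XX control, XY FOXL2+ gonads differed in 1 member, Tet3, which was higher. Its signals were 10.36, 10.04, 10.37 and 10.41 in XY FOXL2+, 10.06, 9.77, 9.71 and 9.86 in XX control and 10.28, 10.26, 10.20 and 10.20 in XY control. Replicates 1, 3 and 4 of XY FOXL2+ read above every testis array, and replicate 2 lay within the range of the ovaries. The difference was 0.45 (SE 0.10, adjusted p = 0.026 by limma), and it lost the call under 7 of 19 alternatives, with adjusted p up to 0.0931. These were median centring, only the 2 groups in the fit, and the fits without XY FOXL2+ replicate 3 or 4 or without XX control replicate 2, 3 or 4. No member was lower (3 at an unadjusted p under 0.05, and 2 higher). Over all clusters 2.87% were higher and 2.64% lower (5.51% in either direction), 1.48% by at least 2-fold. Uhrf1 was the 1 member whose groups did not overlap, at 10.12 to 10.80 in XY FOXL2+ and 9.78 to 10.05 in XX control (0.40, adjusted p = 0.116 by limma). Over all clusters, 6.63% were higher and 4.82% lower without overlap. The median over the members was 0.01, against 0.0325 over all clusters.

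The 5 members that fell with FOXL2 had differences from XX control of 0.60 for Tdrd5 (SE 0.36), 0.76 for Morc1 (SE 0.63), -0.03 for Henmt1 (SE 0.15), 0.01 for Exd1 (SE 0.14) and 0.14 for Tet2 (SE 0.11). None passed the test. A missed threshold does not show equal levels, and for Tdrd5 and Morc1 the errors leave room for a difference of more than 1 log2 unit. The FOXL2 and sex comparisons share the XY control arrays, so the likeness of their values is not an independent result. The genes with higher ovary signals had negative differences from XX control, such as Tdrd7 at -0.47, Tdrkh at -0.44 and Setdb1 at -0.33, none past the test. Without XY FOXL2+ replicate 2, which read highest of its group for these 3 genes, Setdb1 (-0.46, adjusted p = 0.0171) and Tdrd7 (adjusted p = 0.0212) were lower than XX control.

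The piRNA genes varied more between gonads of 1 group than other clusters did in XY control and XY FOXL2+. The median SD of the 18 piRNA genes was 0.455 in XY control, 0.703 in XY FOXL2+ and 0.13 in XX control, against 0.131, 0.163 and 0.116 over all clusters. The median SD of the other 13 members was 0.0704, 0.218 and 0.0831, and in XY control 9 of the 13 had an SD below that of all clusters. XY control replicate 4 had the highest signal of its group for 16 of the 18 piRNA genes, and for 18.7% of all clusters. XY control replicate 1 had the lowest for 11 of 18, and for 20.7% of all clusters. XY FOXL2+ replicate 1 had the lowest for 15 of 18, and for 33.6% of all clusters. XX control replicate 1 had the lowest for 16 of 18, and for 36.2% of all clusters, but there the arrays lay close together. Mael shows the size of this spread, with 13.34 to 15.18 in XY control, 12.45 to 14.44 in XY FOXL2+ and 13.98 to 14.24 in XX control. The main fit pools the spread of all 3 groups. For genes with this pattern, the tighter XX control arrays thus lower the SE and the p-value of XY FOXL2+ minus XY control.

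In XY control, the mean signal of the 12 general germ cell markers was highest on replicate 4, at 9.30 against 9.00 to 9.19 on the other 3. In XY FOXL2+ it was lowest on replicate 1, at 8.31 against 8.49 to 8.76. The markers did not move together. On XY control replicate 4, Nanos3, Pou5f1, Sall4, Lin28a and Utf1 read highest of the group, but Kit, Prdm1 and Tfap2c lowest. On XY FOXL2+ replicate 1, Dazl, Dnd1, Nanos3 and Sall4 read lowest of the group, but Sox2, Prdm1 and Tfap2c highest. The mean of the 12 was also lowest on replicate 1 in XY control (9.00) and in XX control (8.41). Over all clusters, XY FOXL2+ replicate 1 also stood apart on the second principal component, at -76.9 against -22.1 to -11.3 for the rest of its group. The part of germ cell number or of embryo stage in this spread was not tested.

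**Figure D4:**
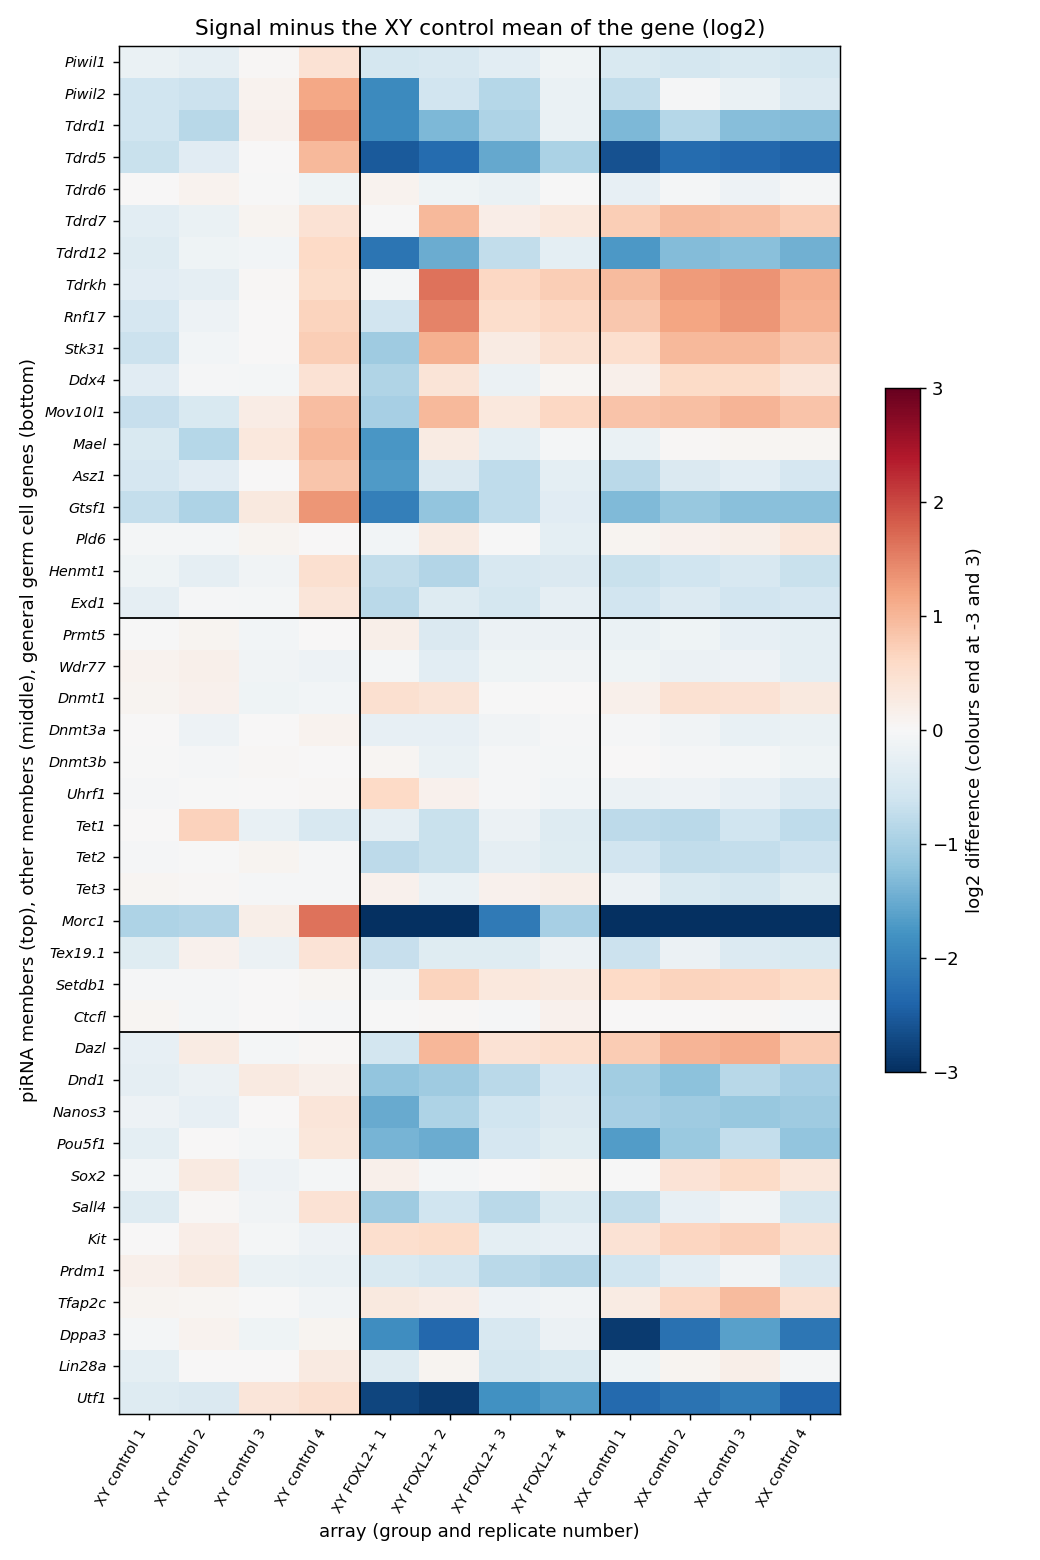
Log2 signal minus the XY control mean of the same gene (colour, ending at -3 and 3) for each array (columns, group and replicate number), with the 18 piRNA genes at the top, the other members in the middle and 12 general germ cell markers at the bottom. XY control replicate 4 is highest of its group in 16 of the 18 piRNA genes and XY FOXL2+ replicate 1 lowest in 15, while most of the other members, Morc1 excepted, vary less.

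Other genes of the piRNA pathway were read beside the members, 10 of 11 having a cluster. Against XY control, XY FOXL2+ had 1 lower and 0 higher (5 and 2 at an unadjusted p under 0.05), with a median of -0.48. The 1 that fell was Mov10, the RNA helicase related to Mov10l1 and made in many cell types. It read 11.76, 11.73, 11.83 and 11.72 in XY control, 11.27, 11.54, 11.20 and 11.23 in XY FOXL2+, and 12.20, 11.96, 11.93 and 11.96 in XX control. XY FOXL2+ thus lay below both controls, by -0.45 against XY control (adjusted p = 0.013) and by -0.70 against XX control (adjusted p = 0.00136 by limma). The first of these lost the call without XY control replicate 3 (adjusted p = 0.05, rounded).

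In the sex comparison 4 of these genes were lower and 2 higher in XX control. Piwil4, the nuclear PIWI gene of fetal male germ cells, read 8.31, 7.92, 9.86 and 11.34 in XY control. In XX control it read 6.47 to 6.72, in the range of the silent Y-linked genes. It was 6.79-fold lower there, an estimate that may be too small (-2.76, adjusted p = 0.00606 by limma). In XY FOXL2+ it read 6.58, 6.94, 7.57 and 8.38, a difference of -1.99 from XY control that missed the threshold (adjusted p = 0.0698). Spocd1, which links Piwil4 to the methylation machinery, was lower in XX control by -1.31 (adjusted p = 0.0438, lost under 11 of 19 alternatives), and Gtsf1l by -1.11 (adjusted p = 0.00072 by limma). Both read in the range of the silent Y-linked genes in XX control. Tex15, also needed for silencing of transposons in male germ cells, was higher in XX control, by 2.28 (adjusted p = 0.00948), and so was Gpat2, a mitochondrial acyltransferase-like gene of the pathway, by 1.91 (adjusted p = 0.00299).

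Of the other DNA methylation and silencing genes, 18 of 23 had a cluster. XY FOXL2+ had 1 higher and 0 lower against XY control (3 and 2 at an unadjusted p under 0.05), with a median of 0.02. Hells, a chromatin remodeller that helps DNA methyltransferases reach packed chromatin, rose. It read 12.03, 12.43, 11.85 and 11.88 in XY control, 12.54, 13.34, 12.67 and 12.62 in XY FOXL2+, and 13.04, 13.30, 13.35 and 13.22 in XX control. The groups of XY gonads did not overlap, and the difference was 0.74 (adjusted p = 0.0209 by limma). It lost the call without XY control replicate 1, 3 or 4 and with only the 2 groups in the fit, with adjusted p up to 0.074. In the sex comparison 4 were higher and 2 lower in XX control, and Hells was 2.26-fold higher at 1.18 (adjusted p = 0.00039).

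All 5 genes of PRC1.6 that were listed (Mga, Max, E2f6, L3mbtl2 and Pcgf6) had a cluster. E2f6, a repressor of the E2F family, fell with FOXL2. It read 10.17, 10.05, 10.10 and 10.36 in XY control, 9.71, 9.27, 9.42 and 9.45 in XY FOXL2+, and 9.39, 9.34, 9.23 and 9.41 in XX control. The difference was -0.71 (SE 0.11, adjusted p = 0.0013 by limma), and it kept its call under all 19 alternatives, with adjusted p up to 0.0136. The other 4 did not pass the test (at an unadjusted p under 0.05, 1 of the 5 was higher and 1 lower), and the median of the 5 was 0.03. In XX control, E2f6 was lower by -0.83 and 3 of the 5 were higher than in XY control. Against XX control, XY FOXL2+ had 1 of the 5 lower and 0 higher, where 2.64% of all clusters were lower. The lower gene was Mga, at -0.53 (adjusted p = 0.00761 by limma), a call kept under all 19 alternatives. Whether these genes act on the members shown above was not measured.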

How the data were processed

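RNA (100 ng) from 12 single pairs of gonads, 4 per group, was hybridised to Affymetrix Mouse Transcriptome Array 1.0. The authors deposited 1 log-scale value per transcript cluster and array, taken here as log2 because values run from 2.60 to 19.49. For log base, background correction, normalization and summarization the sources used here name nothing. Array medians were 6.15 to 6.30. Of 72688 entries, 6732 controls were left out. Clusters were named from the platform annotation with symbols updated through RefSeq: 31266 had 1 symbol, 1484 several and 33206 none, and only those with 1 symbol were used for genes.

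The remaining 65956 clusters were fitted with limma 3.58.1 (R 4.3.3; lmFit, eBayes with an intensity trend) by group over all 12 arrays, and p-values were adjusted by Benjamini-Hochberg over all of them. The steps were tested on simulated data. Arrays are separate embryos. No litter or batch is given, and their number limits the precision. Alternatives were quantile normalization, median centring, only clusters above the median signal, only the 2 groups compared, a replicate block, array weights, no intensity trend, and leaving out each array. The members and lists were chosen with earlier results of these data known. Signals on every array are given for members past the threshold with FOXL2, and for those past it and at least 2-fold apart in another comparison. Tet3, past the threshold against XX control but under 2-fold, is also given on every array, a choice made after its values were seen. Genes of the other piRNA, methylation and PRC1.6 lists are named by the same rule. The value of Mga against XX control, under 2-fold, is also given, a choice made after its values were seen. Marker lists are given by counts and mean signals. General germ cell markers that fell or had positive differences with FOXL2 are named. The Y-linked genes were chosen after the values were seen. Sequences are from RefSeq promoters (GRCm38.p6).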

Additional observations from a re-analysis of the deposited data

Results flagged for a closer look

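Of the 93 groups of 4 values (31 members in 3 groups), 3 held an array far from the others, where chance gives about 1 in 20. Tdrd1 read 8.89 on XX control replicate 2, against 8.40 to 8.47 on the other 3. Mael read 13.98 on XX control replicate 1, against 14.23 to 14.24. Tet3 read 10.04 on XY FOXL2+ replicate 2, against 10.36 to 10.41.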

How the results depend on the processing

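With only the 2 groups compared in the fit, XY FOXL2+ differed from XY control in 1 member instead of 5 and in 2700 clusters instead of 4698, and from XX control in 0 members instead of 1 (3 higher and 2 lower at an unadjusted p under 0.05) and in 1916 clusters instead of 3635. Median centring also left 0 members different from XX control (2 higher and 4 lower unadjusted, limma), and array weights gave 6752 clusters there. Leaving out 1 array at a time gave 2 to 6 members and 3124 to 5392 clusters with FOXL2, 9 to 17 members and 8986 to 13714 clusters between the sexes, and 0 to 3 members and 2012 to 5992 clusters against XX control. Without XY FOXL2+ replicate 1 the FOXL2 count was 2 higher (Tdrkh and Setdb1) and 2 lower (Tdrd5 and Tet2), without its replicate 2 it was 2 lower, and without XY control replicate 3 or 4 it was 3 lower. The fewest clusters with FOXL2, 3124, came without XY control replicate 3. Against XX control, counts of clusters fell to 2255 and 2012 without XY FOXL2+ replicates 3 and 4 and to 2041, 2068 and 2215 without XX control replicates 2, 3 and 4, and 5992 came without XY FOXL2+ replicate 2. Of the clusters, 1621 rose and 3077 fell with FOXL2, against 2184 and 2656 after quantile normalization. For sex the split of 4727 higher and 6732 lower became 6116 and 5385 with quantile normalization and 5782 and 5575 with median centring. With the replicate number as a block, 6, 16 and 1 members and 4356, 10905 and 3207 clusters were called. Over all clusters, the deviations of arrays with the same number had r from -0.09 to 0.18. Between XY FOXL2+ and XX control, r was 0.18, 0.01, 0.07 and 0.11 for replicates 1 to 4. Replicate 1 also read lowest for most of the 18 piRNA genes in each group. Whether arrays with the same number share a litter or batch was not tested. No called difference changed sign. Signs changed, without a call, for 6, 4 and 12 members in the 3 comparisons, with main differences of at most 0.35 in size. Signals near those of silent genes limit Henmt1, Piwil1, Morc1, Gtsf1, Gtsf1l, Spocd1 and Piwil4, and in part Exd1 and Tex19.1.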
